A study of Mus musculus with 8 samples.

Results

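Macrophages find microbes, damaged tissue and other leukocytes through receptors for chemoattractants, and 7 genes for such receptors were followed here in bone marrow-derived macrophages (BMDMs): the formyl peptide receptors Fpr1 and Fpr2, the CC chemokine receptors Ccr1 and Ccr2, the atypical receptor Ccrl2, the fractalkine receptor Cx3cr1 and the Cxcl12 receptor Cxcr4. They were taken by name, 7 of the 54532 genes in the count tables, and were chosen by the measured fall of Fpr2 between Trex1-KO cells and Trex1-KO cells with SN-011, so their values in that contrast are given as a description with no test. The 7 receptors and the gene lists below were chosen with earlier results of these data known. Counts of calls among them are therefore descriptions and do not measure an excess over all genes. All 7 had enough counts to be tested, as had 14591 genes of the whole table.

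The RNA-Seq libraries came from BMDMs of WT and Trex1-/- (Trex1-KO) mice, with 2 libraries in each of 4 groups. The mice were 6 to 8 weeks old and, by the study's methods, of C57BL/6J background, and marrow cells from the leg bones were grown for 7 days in medium with L929 cell supernatant. WT and Trex1-KO cells received the solvent DMSO for 12 h. In the other two groups Trex1-KO cells received H151 (500 nM) or SN-011 for 12 h, and by the study's methods SN-011 was used at the same concentration. Trex1 is an exonuclease that degrades DNA in the cytosol, and cells that lack it activate the DNA sensor cGAS and its partner STING. H151 and SN-011 are both small-molecule STING antagonists; H151 binds STING covalently, and SN-011 occupies the pocket for cyclic dinucleotides. No WT cells with an antagonist were analysed here, so the effect of each compound was measured in Trex1-KO cells alone. The SN-011 libraries are described separately from the others in the labels, and treatment and any batch cannot be told apart for them.

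The receptors belong to the class with 7 membrane-spanning helices, and most couple to Gi proteins, which release calcium, activate phosphoinositide 3-kinase gamma and steer the cell towards the source of ligand. In the marrow, Cxcr4 holds cells near Cxcl12-producing stroma, and Ccr2 lets monocytes leave it. Cx3cr1 is high on resident monocytes and many tissue macrophages. Formyl peptide receptors and Ccrl2 are genes that macrophages raise on inflammatory stimulation.

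The libraries held 11845470 to 17284863 counts, and 1 count was worth 0.0581 to 0.0848 CPM (a gene's counts scaled by the library total and its TMM factor) and 3 counts, taken as the floor, 0.174 to 0.254 CPM. Trex1 itself had 0 counts in all 8 libraries and does not check the genotype. Its exons lie on the same strand inside exons of Atrip, for which the level was 14.1 and 17.4 CPM in the WT libraries against 54.2 to 70.3 CPM in the 6 Trex1-KO libraries. The 6 macrophage markers (Adgre1, Csf1r, Cd68, Mertk, Fcgr1 and Lyz2) summed to 29400 to 31600 CPM over all libraries, most of it Lyz2. Of these 6, edgeR called Adgre1, Cd68 and Fcgr1 higher in Trex1-KO than in WT, and Fcgr1 lower with each antagonist. Fcgr1, an Fc receptor for IgG, had means of 232.7 CPM in WT and 512.8 in Trex1-KO, and then 362.7 (H151) and 365.2 CPM (SN-011); the part of this in the receptor results was not tested. The 6 lymphocyte markers summed to at most 1.1 CPM. The 5 dendritic cell markers reached 2.88 CPM at most, with Cd209a and Ccr7 at 0 counts throughout. By the study's methods replicates were independent experiments, but the labels do not say what a replicate number stands for, so p-values measure the spread between these libraries, which may be technical.

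Of the 6 receptors other than Fpr2, 5 were called higher without Trex1 (Trex1-KO against WT, edgeR quasi-likelihood test, false discovery rate (FDR) under 0.05) and none lower, where 9.27% of all tested genes were called higher, 7.11% lower and 16.4% in either direction. As the receptors were chosen with earlier results known, their count is a description beside these shares. Of all calls in that contrast 56.6% were higher, and 37.2% with scaling by total counts alone. Without WT replicate 2, without Trex1-KO replicate 1 or with total-count scaling of all libraries the count was 3 of these 6, with Ccr1 and Cx3cr1 not called. The antagonists then divided them. Fpr1 stood close to the WT level with H151 and with SN-011, and Fpr2 lay within the wide range of the WT libraries. Ccrl2 came part of the way down, and Ccr2 stayed near its Trex1-KO level. With H151, 2 of these 6 (Fpr1 and Ccrl2) were called lower and none higher, against 1.84% of all genes lower, 0.384% higher and 2.23% in either direction. With SN-011, 3 of the 7 were lower, where 2.33% of genes were called, 2.22% lower and 0.11% higher; since Fpr2 was chosen for this contrast, nothing is read from that count, which was 0 without SN-011 replicate 1 and 1 without SN-011 replicate 2. Between SN-011 and H151, edgeR called 0 of these 6 and 0.158% of all genes; 1 of them had an unadjusted p under 0.05, and DESeq2 and the exact test of edgeR also called 0. Against WT, 3 receptors (Ccr1, Ccr2 and Ccrl2) were called higher with H151 and none lower, where 11.8% of all genes were called, 6.79% higher and 5.04% lower; without WT replicate 2, Cxcr4 was also called higher and Fpr2 lower. The same 3 were called higher with SN-011, where 11.7% of all genes were called and 6.18% higher.

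**Figure D1:**
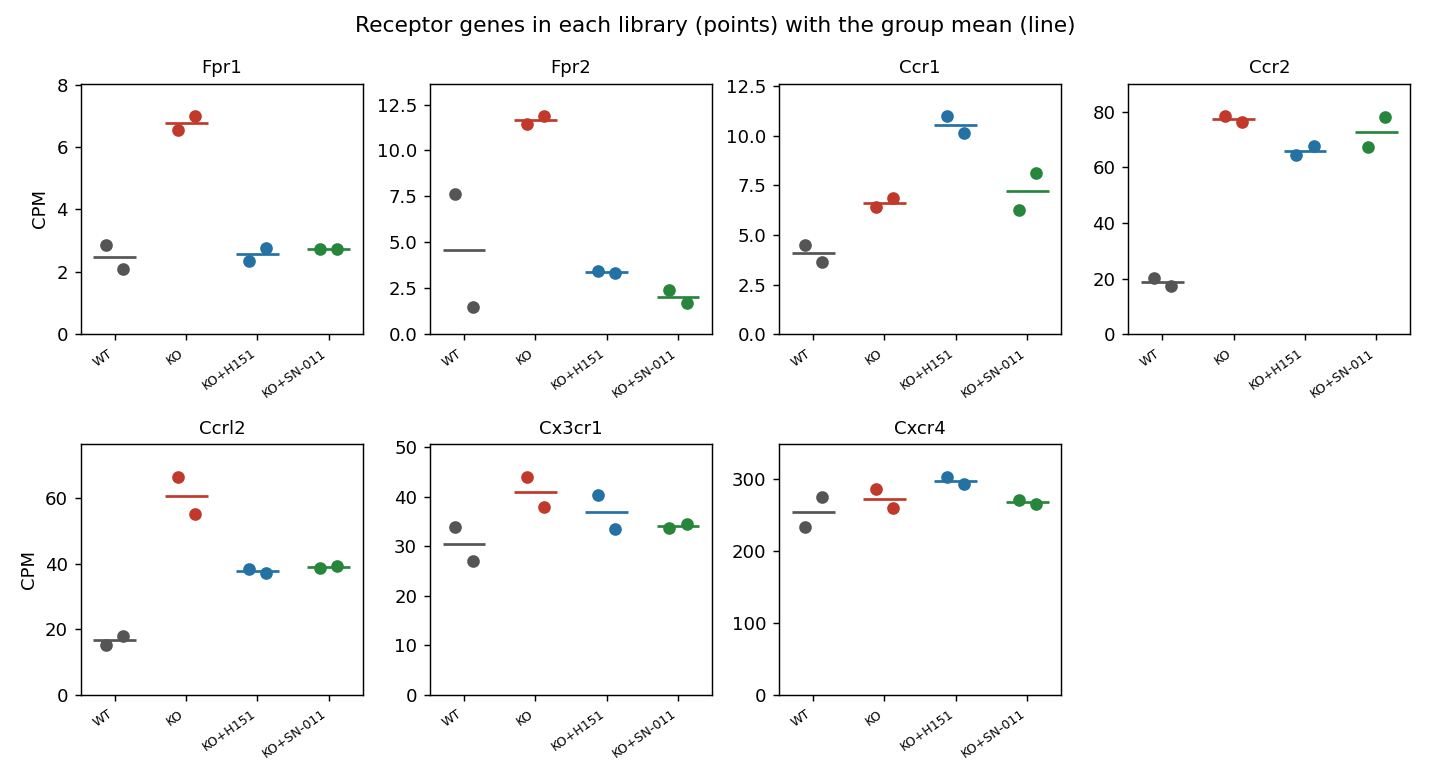
Level of each receptor gene in CPM (vertical axis, starting at 0, a different range in each panel) in the 2 libraries of each group (points) with the group mean (line); KO stands for Trex1-KO. Fpr1, Fpr2 and Ccrl2 were lower in all 4 antagonist libraries than in both Trex1-KO libraries, while Ccr2 stood between 64.4 and 78.3 CPM in every Trex1-KO library. The values of Fpr2 and those of SN-011 against Trex1-KO are a description, since that contrast chose the genes.

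Fpr1 (ENSMUSG00000045551) and Fpr2 (ENSMUSG00000052270) are neighbours on chromosome 17 (GRCm38). They lie head to head, with their starts on the facing ends and transcription running apart. Fpr1 spans 17876471 to 17883940 on the minus strand and Fpr2 17887824 to 17893952 on the plus strand. Fpr1 is the high-affinity receptor for the formylated peptides that bacteria and mitochondria release, and Fpr2 binds a wider set of ligands that includes serum amyloid A and annexin A1. Because the pair lies side by side and had the steepest falls with the antagonists, the 250 bases upstream of each RefSeq start (GRCm38.p6) are shown 5′ to 3′ on the gene's own strand, at chr17:17883940-17884189 (minus) for Fpr1 and chr17:17887574-17887823 (plus) for Fpr2. Capitals mark matches to the motifs named after them.
Fpr1: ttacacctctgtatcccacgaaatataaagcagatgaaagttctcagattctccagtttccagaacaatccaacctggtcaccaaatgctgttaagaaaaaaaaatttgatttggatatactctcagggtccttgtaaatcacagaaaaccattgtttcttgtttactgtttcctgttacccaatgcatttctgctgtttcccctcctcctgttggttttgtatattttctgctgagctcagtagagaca
Fpr2: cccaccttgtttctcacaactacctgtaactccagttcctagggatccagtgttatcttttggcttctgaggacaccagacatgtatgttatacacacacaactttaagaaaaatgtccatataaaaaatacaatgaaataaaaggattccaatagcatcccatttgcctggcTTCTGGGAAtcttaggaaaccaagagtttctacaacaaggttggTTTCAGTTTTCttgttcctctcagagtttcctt
The search covered both strands for the core of the interferon-stimulated response element, TTTCNNTTTC, the same pair of half-sites with a spacer longer by 1 base, TTTCNNNTTTC, the GAS element TTCNNNGAA and the kappa B consensus, all of them chosen with the sequences in view. The upstream window of Fpr2 held TTTCAGTTTTC at 33 to 23 bases before the start and TTCTGGGAA at 77 to 69 bases before it. No match to any of the 4 motifs was present in the Fpr1 window. Among 32851 mouse promoter windows of the same length, 2.38% held the longer-spaced pair, 7.02% the GAS element, 2.98% the ISRE core and 7.25% the kappa B consensus. A match is a description of these letters and not a site of binding.

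Fpr1 was measured at 2.87 and 2.10 CPM in the WT libraries and at 6.56 and 6.98 CPM in the Trex1-KO libraries. With H151 it stood at 2.36 and 2.75 CPM, and with SN-011 at 2.73 and 2.71 CPM. The Trex1-KO libraries were thus the highest of the 8 and overlapped no other group, and the other 6 lay close together. The means were 2.48 ± 0.543 CPM in WT, 6.77 ± 0.300 in Trex1-KO, 2.56 ± 0.276 with H151 and 2.72 ± 0.012 with SN-011 (SD, n = 2). Trex1-KO exceeded WT 2.73-fold (1.45 ± 0.232 in log2, SE; edgeR adjusted p = 0.000575). Fpr1 fell with H151, with a log2 value of -1.40 ± 0.232 (edgeR adjusted p = 0.00382) that stayed past the threshold when any library was left out. The log2 fold change with SN-011 was -1.31 ± 0.228.

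After treatment Fpr1 did not differ from WT beyond the error of these libraries. The log2 difference between H151 and WT was 0.05, with a 95% interval of -0.52 to 0.62, and that between SN-011 and WT was 0.14, from -0.42 to 0.70 (edgeR adjusted p = 0.934 and 0.822). Between the antagonists it was 0.09, from -0.47 to 0.65 (edgeR adjusted p = 0.945). Fpr1 rested on 29 to 106 counts a library.

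Fpr2 reached 11.5 and 11.9 CPM in Trex1-KO, against 3.42 and 3.35 CPM with H151 and 2.38 and 1.70 CPM with SN-011. The WT libraries disagreed, at 7.64 CPM (104 counts) and 1.49 CPM (22 counts). All 4 antagonist libraries lay below both Trex1-KO libraries and within the range of the WT pair. The mean was 11.7 ± 0.283 CPM in Trex1-KO, 3.39 ± 0.0446 with H151, 2.04 ± 0.485 with SN-011 and 4.57 ± 4.35 in WT (SD, n = 2). The log2 fold change with SN-011, the value that led to the choice of genes, was -2.48 ± 0.466 (SE), a 5.57-fold lower level, and that with H151 was -1.78 ± 0.436, 3.44-fold lower. These contrasts, and Trex1-KO against WT at 1.37 ± 0.417, share libraries with the one that chose Fpr2 and are given without a test.

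The WT level of Fpr2 rested on which WT library was read. Without WT replicate 1 the log2 fold change of Trex1-KO against WT was 2.95, and without WT replicate 2 it was 0.60. H151 against WT uses no library of the contrast that chose the gene, and there the log2 fold change was -0.41 ± 0.483 (SE), with a 95% interval of -1.45 to 0.63 (edgeR adjusted p = 0.675). It ran from -1.18 to 1.17 when 1 WT library was left out, so its direction was not fixed by these data, and it passed the threshold without WT replicate 2 (edgeR adjusted p = 0.00923). Between the antagonists Fpr2 was 0.70 lower on the log2 scale with SN-011, with an interval of -1.87 to 0.47.

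Counting could mix Fpr2 with its relatives only to a small extent. Of its exon bases, 48 (3.7%) are shared with exons of Fpr3, and 16 of 984 windows of 150 bases in its transcript (1.63%) also occur in the transcript of Gm5966. No 150-base window of Fpr1 occurs elsewhere. Fpr3 and the rodent receptors Fpr-rs3, Fpr-rs4, Fpr-rs6 and Fpr-rs7, which in mice include vomeronasal receptors, had 0 counts in all 8 libraries.

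The genes whose levels followed Fpr2 most closely over the 8 libraries (Pearson r of log2 CPM, among tested genes whose average log2 CPM was 2 or more) were Acod1 (r = 0.986), Clec4e (0.978), Relb (0.973), Sod2 (0.973) and Dnajb5 (0.972). The libraries share their groups, so r describes the pattern and carries no test. Acod1, the enzyme that makes itaconate, was at 38.7 and 43.9 CPM in Trex1-KO, 1.69 and 13.6 CPM in WT and 2.80 to 5.78 CPM with the antagonists. Clec4e, the Mincle receptor for microbial glycolipids and products of dead cells, was at 75.7 and 86.5 CPM in Trex1-KO, 17.5 and 53.1 CPM in WT and 15.6 to 26.7 CPM with the antagonists. Like Fpr2, both had 1 WT library well above the other. Relb, a subunit of NF-kappa B, lay between 72.5 and 73.6 CPM in Trex1-KO and between 48.6 and 64.5 CPM in all other libraries. Dnajb5 varied little despite its high r. It was at 13.9 and 15.4 CPM in WT, 15.3 and 15.5 in Trex1-KO and 13.9 to 14.4 CPM with the antagonists. In all, 62 of 10714 genes had an r of 0.9 or more with Fpr2. Fpr1 and Fpr2 had an r of 0.86, and Ccr2 and Ccrl2, the closest pair among the 7 receptors, one of 0.93.

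**Figure D2:**
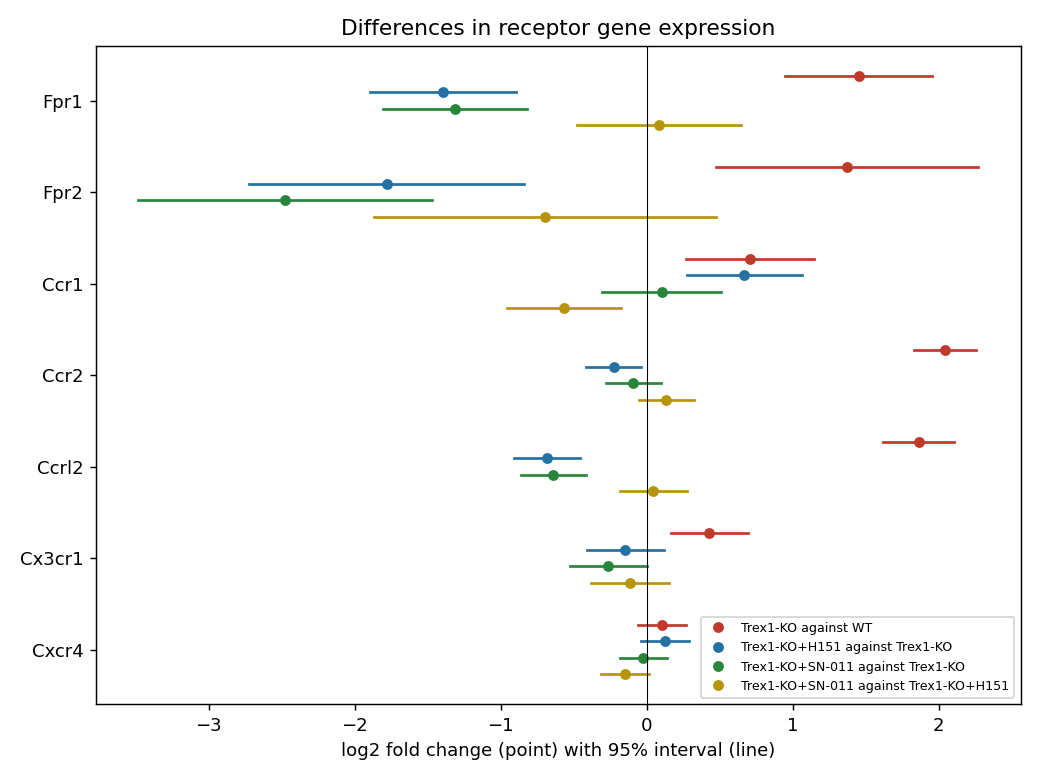
Log2 fold change (points) with its 95% interval (lines) from the edgeR fit of all 8 libraries, for each receptor and 4 comparisons, with 0 marking no difference. The intervals of Fpr1 and Ccrl2 for H151 against Trex1-KO lie below 0, and of the 6 receptors other than Fpr2 all but Ccr1 have an interval across 0 for SN-011 against H151; the values of SN-011 against Trex1-KO are a description, since that contrast chose the genes, as are the values of Fpr2.

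Ccrl2 (ENSMUSG00000043953, chromosome 9, 111054486 to 111057519, minus strand) encodes a receptor that binds chemerin without signalling and presents it to Cmklr1, the signalling chemerin receptor. Its level was 15.1 and 18.1 CPM in WT, then 66.3 and 55 CPM in Trex1-KO, 38.3 and 37.1 CPM with H151 and 38.7 and 39.1 CPM with SN-011. No library of WT, Trex1-KO or the antagonists crossed into the range of another of these 3 sets. The means were 16.6 ± 2.07, 60.7 ± 8.01, 37.7 ± 0.867 and 38.9 ± 0.283 CPM in that order (SD, n = 2). Trex1-KO was 3.64-fold above WT (log2 fold change 1.86 ± 0.113 SE, edgeR adjusted p = 6.98e-08). H151 lowered Ccrl2 by -0.68 ± 0.104 on the log2 scale (edgeR adjusted p = 0.00189), and with SN-011 the log2 fold change was -0.64 ± 0.103.

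Ccrl2 remained above WT under both compounds. The log2 fold change against WT was 1.18 with H151 (edgeR adjusted p = 1.65e-05) and 1.22 with SN-011 (edgeR adjusted p = 1.09e-05), that is 2.26-fold and 2.34-fold. The difference between the compounds was 0.04 (95% interval -0.18 to 0.28, edgeR adjusted p = 0.931).

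Ccr2 (ENSMUSG00000049103, chromosome 9, 124101950 to 124113557, plus strand), the receptor for Ccl2, Ccl7 and Ccl12 that marks inflammatory monocytes, had the largest log2 difference between Trex1-KO and WT of the 7 genes in the fit of all libraries. Without WT replicate 1 that of Fpr2 was larger, at 2.95 against 2.15 for Ccr2. Ccr2 stood at 20.3 and 17.3 CPM in the WT libraries and at 78.3 and 76.2 CPM in the Trex1-KO libraries. With H151 it was at 64.4 and 67.5 CPM, and with SN-011 at 67.3 and 78.0 CPM. Every Trex1-KO library was far above both WT libraries, and the SN-011 and Trex1-KO libraries overlapped. The mean rose from 18.8 ± 2.14 to 77.3 ± 1.48 CPM (SD, n = 2), 4.12-fold (log2 fold change 2.04 ± 0.099 SE, edgeR adjusted p = 8.19e-09). Against WT the log2 fold change was still 1.82 ± 0.100 with H151 and 1.95 ± 0.099 with SN-011 (edgeR adjusted p = 8.95e-08 and 4.06e-08).

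Neither compound moved Ccr2 far. H151 against Trex1-KO gave a log2 fold change of -0.23, with a 95% interval of -0.41 to -0.04, that did not pass the FDR threshold (edgeR adjusted p = 0.365). The value with SN-011 was -0.09, and the antagonists differed by 0.14 (edgeR adjusted p = 0.687).

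The upstream window of Ccrl2, at chr9:111057519-111057768 (minus; the first of its 3 RefSeq starts), is shown because this gene was called higher in Trex1-KO and lower with H151. Capitals mark the kappa B match.
Ccrl2: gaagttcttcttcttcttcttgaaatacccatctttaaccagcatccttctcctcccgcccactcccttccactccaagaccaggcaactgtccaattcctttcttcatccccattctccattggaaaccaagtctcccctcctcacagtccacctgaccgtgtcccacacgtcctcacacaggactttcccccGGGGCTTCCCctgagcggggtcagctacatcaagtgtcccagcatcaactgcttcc
The match in Ccrl2, GGGGCTTCCC, lies 56 to 47 bases before the start and matches the consensus on both strands. The windows of the Ccrl2 starts ranked 2 and 3 held none of the 4 motifs. The Ccr2 window, upstream of a RefSeq start that lies inside the gene as GENCODE gives it and not printed for that reason, held none of the 4 motifs, nor did those of Cx3cr1 and Cxcr4. The Ccr1 window held 1, the kappa B match GGGAGGCTCC at 74 to 65 bases before the start.

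Ccr1 (ENSMUSG00000025804, chromosome 9, 123962124 to 123968692, minus strand), a receptor for Ccl3, Ccl5, Ccl6 and Ccl9, had its highest level with H151, as Cxcr4 had. It was measured at 4.48 and 3.65 CPM in WT, then 6.41 and 6.85 CPM in Trex1-KO, 10.98 and 10.13 CPM with H151 and 6.28 and 8.14 CPM with SN-011. The H151 pair lay above all other libraries and the WT pair below all others, while SN-011 and Trex1-KO overlapped. The means were 4.07 ± 0.586, 6.63 ± 0.314, 10.6 ± 0.604 and 7.21 ± 1.32 CPM in that order (SD, n = 2).

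For Ccr1 the contrast of H151 with WT was firm, at 2.59-fold (log2 fold change 1.38 ± 0.195 SE, edgeR adjusted p = 0.000341), and the smaller steps were not. H151 against Trex1-KO gave 0.67 ± 0.182 in log2 (edgeR adjusted p = 0.102; over the 8 alternatives that kept all libraries, the exact test at 0.0225 and the filter at 1 count at 0.0348 passed). Trex1-KO against WT gave 0.71 ± 0.204 (edgeR adjusted p = 0.0293), and this call was lost when any 1 WT or Trex1-KO library was left out (edgeR adjusted p = 0.0555 to 0.217), with total-count scaling (0.0514) and with DESeq2 (0.0815). SN-011 against WT gave 0.81 (edgeR adjusted p = 0.0173), a call lost without WT replicate 2 or SN-011 replicate 2. Against H151, SN-011 gave -0.56 ± 0.181 with a 95% interval of -0.95 to -0.17, the only one of the 6 other than Fpr2 with an unadjusted p under 0.05 (edgeR adjusted p = 0.427).

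Cx3cr1 (ENSMUSG00000052336, chromosome 9, 119901616 to 120069879, minus strand), the receptor for membrane-bound fractalkine, changed little; 78 of its exon bases (1.73%) overlap exons of Gm33858. Its level was 33.8 and 26.9 CPM in WT, then 43.9 and 37.9 CPM in Trex1-KO, 40.4 and 33.5 CPM with H151 and 33.6 and 34.4 CPM with SN-011. The WT libraries overlapped both antagonist groups, and only the Trex1-KO pair stood clear of WT. The log2 fold change of Trex1-KO against WT was 0.43 ± 0.124 (SE; edgeR adjusted p = 0.0293). That call was lost without WT replicate 2 (edgeR adjusted p = 0.317), Trex1-KO replicate 1 (0.225) or SN-011 replicate 2 (0.0575), and with total-count scaling (0.0761); the log2 value itself was 0.26 without WT replicate 2. H151 against Trex1-KO gave -0.15 (edgeR adjusted p = 0.848), and the value with SN-011 was -0.26.

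Cxcr4 (ENSMUSG00000045382, chromosome 1, 128588199 to 128592293, minus strand) had the highest CPM of the 7 and passed no test in the fit of all libraries. It lay at 232.6 and 274 CPM in WT, then 285.3 and 259.1 CPM in Trex1-KO, 302.3 and 292.2 CPM with H151 and 271.1 and 264.6 CPM with SN-011. WT and Trex1-KO overlapped, and the H151 pair was the highest. The log2 difference between Trex1-KO and WT was 0.10, with a 95% interval of -0.06 to 0.27 (edgeR adjusted p = 0.434), and that between H151 and WT was 0.23 (edgeR adjusted p = 0.0705, and 0.0145 with the filter at 1 count or 0.0196 without WT replicate 2). H151 against Trex1-KO gave 0.13 (edgeR adjusted p = 0.717).

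Levels of different genes were compared per kb of exon (CPM per kb). In Trex1-KO the order was Cxcr4 at 157.8 and 143.3, Ccrl2 at 23.3 ± 3.08, Ccr2 at 11.4 ± 0.219, Cx3cr1 at 9.08 ± 0.952, Fpr2 at 9 ± 0.218, Fpr1 at 5.11 ± 0.227 and Ccr1 at 2.34 ± 0.111 CPM per kb (both libraries for Cxcr4, otherwise mean and SD, n = 2). Cx3cr1 and Fpr2 did not differ there beyond their spread, and each other neighbour in the order was separated. In WT, Cx3cr1 (6.74 ± 1.08) and Ccrl2 (6.39 ± 0.797) followed Cxcr4 (140 ± 16.2) and overlapped, and Fpr2 (3.52 ± 3.36) overlapped Ccrl2, Ccr2 (2.78 ± 0.317), Fpr1 (1.87 ± 0.410) and Ccr1 (1.44 ± 0.207). Ccr2 thus stood below Cx3cr1 in WT and above it in Trex1-KO. With H151, Fpr2 (2.61) and Fpr1 (1.93) were the lowest, and Ccr1 (3.73) had passed both. With SN-011, Fpr2 was the lowest at 1.57 ± 0.374, below Fpr1 at 2.06 ± 0.00906 and Ccr1 at 2.54 ± 0.466 CPM per kb.

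**Figure D3:**
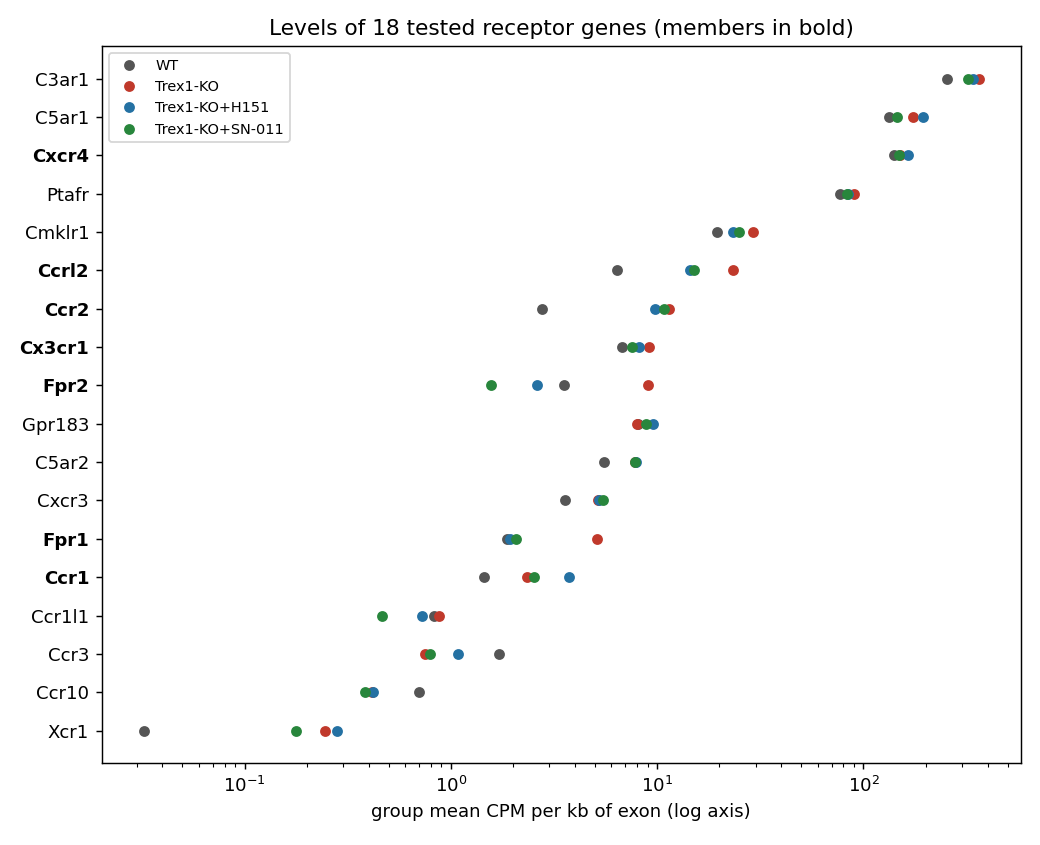
Group mean level in CPM per kb of exon (log axis) of chemoattractant receptor genes that could be tested, ordered by their level, with the 7 receptors described here in bold. Cxcr4 sat above 100 CPM per kb in every group, Ccr2 in WT sat well to the left of its other 3 groups, and Fpr2 with the antagonists sat to the left of its WT mean.

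Of 33 other chemoattractant receptors listed, 12 had enough counts to be tested. In Trex1-KO against WT, 7 of the 12 were called higher and 1 lower (9.27% and 7.11% of all tested genes), with a median log2 fold change of 0.45 against -0.002 over all tested genes. Xcr1, the receptor for Xcl1, had 3 and 1 counts in WT and 16 and 15 in Trex1-KO (log2 fold change 2.88 ± 0.683 SE and 2.25 to 3.83 without 1 WT library, edgeR adjusted p = 0.00965, lost without WT replicate 2 or Trex1-KO replicate 1). The eotaxin receptor Ccr3 was the 1 lower gene, from 4.56 and 6.63 to 2.11 and 2.77 CPM (log2 fold change -1.19 ± 0.280 SE, edgeR adjusted p = 0.00907, lost without WT replicate 2 or Trex1-KO replicate 1). Cmklr1 was higher by 0.58 (edgeR adjusted p = 5.03e-05).

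Under the antagonists 1 of the 12 other receptors was called in each comparison, where 2.23% of all genes were called with H151, 2.33% with SN-011 and 0.158% between them. Cmklr1, to which Ccrl2 presents chemerin, fell with H151 from 99.9 and 99.7 to 79.9 and 78.4 CPM (log2 fold change -0.33 ± 0.069 SE, edgeR adjusted p = 0.0187, lost without any 1 Trex1-KO or H151 library). The C5a receptor C5ar1 fell with SN-011 from 441.7 and 454.1 to 377.4 and 366.6 CPM (-0.27 ± 0.061 SE, edgeR adjusted p = 0.0337, lost without any 1 Trex1-KO or SN-011 library). H151 left C5ar1 at 512.2 and 488.7 CPM, and SN-011 stood below H151, with -0.43 ± 0.061 in log2 (SE; edgeR adjusted p = 0.0134, and 0.233 to 0.297 without 1 SN-011 library).

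All 16 listed ligands of the 7 receptors were tested, and 7 were called higher and 2 lower in Trex1-KO against WT (9.27% and 7.11% over all tested genes; median log2 fold change 0.42). The Ccr2 ligand Ccl12 went from 1.98 and 0.948 CPM in WT to 5.35 and 4.68 in Trex1-KO (log2 fold change 1.78 ± 0.320 SE, edgeR adjusted p = 0.00143; 1.32 to 2.38 without 1 WT library). With H151 it was at 1.71 and 1.34 CPM (-1.72 ± 0.320 SE, edgeR adjusted p = 0.00915, and 0.0642 without H151 replicate 2 or 0.0589 without Trex1-KO replicate 1) and with SN-011 at 2.03 and 1.95 CPM (-1.32 ± 0.303 SE, edgeR adjusted p = 0.0364, lost without any 1 Trex1-KO or SN-011 library and with DESeq2 at 0.0748). Ccl12 therefore fell with both compounds while its receptor gene stayed near the Trex1-KO level. Ccl7 fell with H151 (-0.73 ± 0.171 SE, edgeR adjusted p = 0.043), a call lost when any 1 of the 8 libraries was left out (edgeR adjusted p = 0.0559 to 0.281), with total-count scaling, with DESeq2 and in a fit of only the 2 groups. Ccl5 was at 10.0 and 2.64 CPM in WT and 23.0 and 17.9 in Trex1-KO (1.71 ± 0.347 SE, edgeR adjusted p = 0.00343, and 0.06 with DESeq2; 1.02 without WT replicate 2 and 2.93 without WT replicate 1). Cxcl12, the ligand of Cxcr4, was lower in Trex1-KO, at 72.2 and 74.6 CPM against 271.7 and 229 in WT (-1.77 ± 0.137 SE, edgeR adjusted p = 6.88e-07). Camp, whose peptide is a ligand of Fpr2 and a component of neutrophil granules, went from 1 and 7 counts in WT to 44 and 64 in Trex1-KO (3.71 ± 0.582 SE, edgeR adjusted p = 0.000491; 2.96 to 5.51 without 1 WT library).

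Downstream of the receptors, 5 of 21 listed signalling genes were called higher in Trex1-KO against WT and none lower, a share of 23.8% beside 16.4% of all tested genes in either direction. They included Plcb2 (log2 fold change 0.49), a phospholipase C activated by G proteins, Rgs18 (0.47), which shortens G protein signals, Pik3r5 (0.46), the regulatory subunit of phosphoinositide 3-kinase gamma, and Dock2 (0.34), an activator of Rac. With H151, edgeR called 0 of the 21, with 1 at an unadjusted p under 0.05, and the exact test and DESeq2 also called 0. With SN-011 only Pik3r5 was called, from 280.1 to 224.7 CPM (-0.32 ± 0.070 SE, edgeR adjusted p = 0.0283, and 0.0546 with total-count scaling, 0.198 without Trex1-KO replicate 1, 0.196 without SN-011 replicate 1 and 0.275 without SN-011 replicate 2).

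Markers of other cells differed between the genotypes. The 8 neutrophil markers summed to 258 to 284 CPM in WT and 368 to 411 CPM in the Trex1-KO groups, most of it Csf3r. Without Csf3r the remaining 7 (S100a8, S100a9, Ly6g, Retnlg, Mpo, Elane and Ltf) summed to 7.17 and 8.31 CPM in WT, 45.1 and 62.8 in Trex1-KO, 55.7 and 57.9 with H151 and 58.5 and 71.2 with SN-011. All 5 neutrophil markers that could be tested were called higher in Trex1-KO against WT. Mean S100a8 was 14.6 CPM in Trex1-KO, 17.0 with H151 and 18.4 with SN-011, and mean Ltf 14.6, 14.3 and 16.0 CPM. Formyl peptide receptors are also expressed by neutrophils, and the part of neutrophils in their values was not tested. In bulk RNA, fewer cells of a type and less RNA per cell cannot be told apart.

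The 5 monocyte markers summed to 379 to 386 CPM in WT and 171 to 239 in the Trex1-KO groups. The WT sum was carried by F13a1, which was lower in Trex1-KO, while Ly6c2, Plac8 and Ms4a4c were called higher, as Ccr2 was. With each antagonist 1 of the 5 was called lower, Ms4a4c, whose mean went from 64.6 CPM in Trex1-KO to 30.3 with H151 and 32.3 with SN-011 (log2 values -1.081 ± 0.168 and -1.004 ± 0.167 SE, edgeR adjusted p = 0.00231 and 0.00376), and the monocyte sum from 225 to 239 CPM in Trex1-KO to 186 to 214 with H151 and 171 to 208 with SN-011. Stromal markers (Col1a1, Col1a2, Col3a1, Dcn and Pdgfra) summed to 2070 to 2260 CPM in WT and 847 to 1200 in the Trex1-KO groups, with 4 of 5 called lower in Trex1-KO, as was Cxcl12. The part of these cells in the values of Fpr1, Ccr2, Camp or Cxcl12 between genotypes was not tested.

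**Figure D4:**
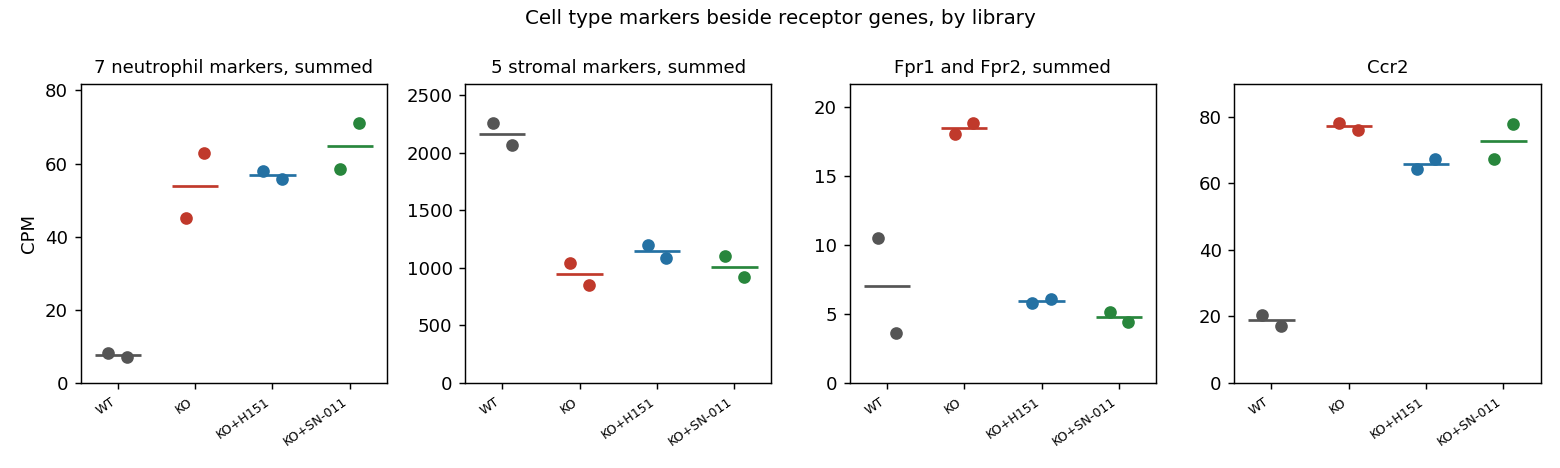
Summed CPM (vertical axis, starting at 0) by library (points) with the group mean (line) for 7 neutrophil markers without Csf3r, 5 stromal markers, Fpr1 with Fpr2, and Ccr2. The neutrophil sum lay at 7.17 and 8.31 CPM in WT and at 45.1 to 71.2 CPM in the 6 Trex1-KO libraries, and the stromal sum was highest in WT; the sum of Fpr1 and Fpr2 includes values that chose the genes and is a description.

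Of the 7 receptors, 4 lie on chromosome 9, as Trex1 does (109057933 to 109059734). Ccrl2 is 1.99 Mb from it, Cx3cr1 10.8 Mb, Ccr1 14.9 Mb and Ccr2 15 Mb. The ligand gene Camp (0.788 Mb) and the neutrophil marker Ltf (1.96 Mb) also lie close to Trex1. Both were called higher in Trex1-KO, with log2 fold changes of 3.71 and 3.40. The signalling gene Gnai2, at -1.42 Mb, was not called. Within 5 Mb of Trex1, 22.6% of 133 tested genes were called between Trex1-KO and WT (9.77% higher), and from 5 to 20 Mb 20% of 165 (10.9% higher). On other chromosomes the share was 16.1% of 13777 genes (9.23% higher), and on the rest of chromosome 9 it was 20% of 516 (9.69% higher). Fpr1 and Fpr2 on chromosome 17 and Cxcr4 on chromosome 1 are not linked to Trex1. The part of the shared chromosome in the differences between genotypes was not tested; the antagonist contrasts compare cells of 1 genotype.

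**Figure D5:**
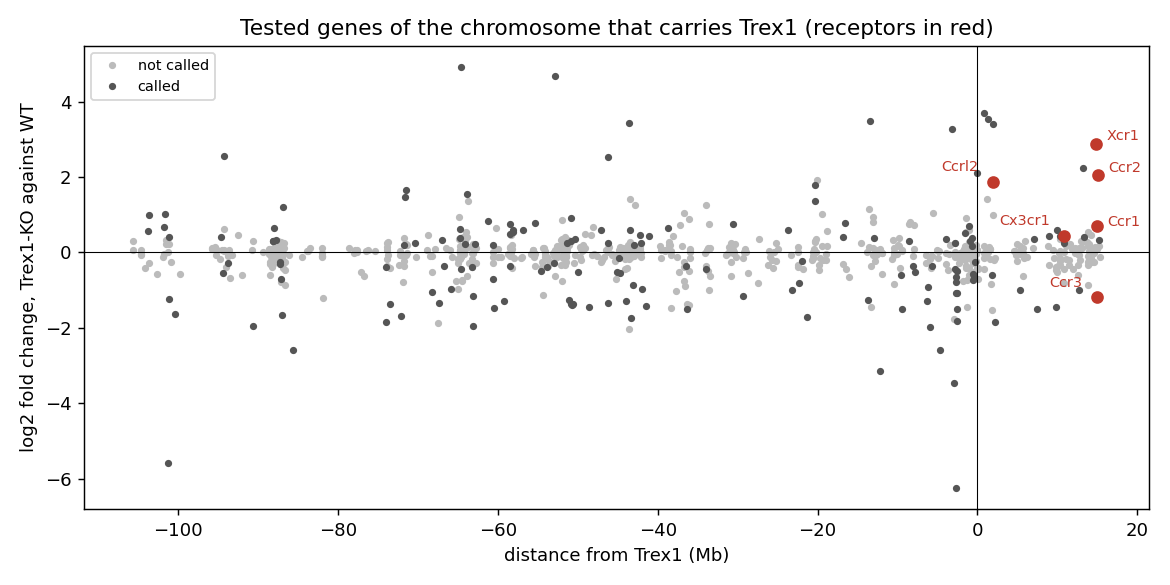
Log2 fold change of Trex1-KO against WT (vertical axis) for tested genes of chromosome 9 by their distance from Trex1 in Mb (horizontal axis, 0 at Trex1), with called genes dark, other genes light and receptor genes of this chromosome that were called in red. Xcr1 and Ccr2 lie at 14.8 and 15 Mb with log2 fold changes of 2.88 and 2.04, Ccr3 lies beside them at -1.19, and called genes in both directions occur along the whole chromosome.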

How the data were processed

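RNA-Seq of BMDMs gave 8 tables, 1 per library, of whole-number counts for 54532 Ensembl genes. Per the labels and the study's methods, the authors trimmed the reads (Trimmomatic), aligned them to the mouse genome (HISAT2; mm10 in the submitters' notes) and counted uniquely mapped pairs per gene before depositing the raw counts; the notes name HTSeq and the methods featureCounts as the counter. The preparation was strand-specific, but the strand setting of the counting is not given in the sources used here.

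Groups came from the sample titles. Gene names, positions and exon lengths came from GENCODE M21 (GRCm38), which held 54495 of the identifiers, and upstream sequences from RefSeq (GRCm38.p6). Genes were kept by filterByExpr (minimum count 10, minimum total 15; 14591 genes), scaled with TMM (factors 0.973 to 1.04) and tested with the edgeR quasi-likelihood test (edgeR 4.0.16, limma 3.58.1, R 4.3.3) in 1 fit of all 8 libraries, with p-values adjusted by Benjamini-Hochberg across the whole table and an FDR of 0.05. Exact tests of single values were not used, as 2 libraries against 2 cannot pass the threshold. The scripts were tested on simulated data. Intervals are 95% intervals of the fit, and floors of 3 counts cover counting error only. Replicates were compared (r of log2 CPM 0.993 to 0.994), and none was a copy of another.

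The members and all lists (other receptors, ligands, signalling genes, cell type markers) were chosen with earlier results of these data known. Named genes were the 7 receptors, up to 4 called genes of each list with the largest absolute log2 fold change in each of the first 4 contrasts, and the 5 genes with the highest r with Fpr2; 1 gene so named is not reported here. Alternatives were scaling by total counts or RLE factors, DESeq2 1.42.0, the exact test of edgeR, 2 other filters, fits of only the 2 groups compared, a replicate block and leaving out each library; for genes named from the lists they were added after seeing the data.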

Additional observations from a re-analysis of the deposited data

Results flagged for a closer look

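A receptor outside the 7 drew attention because the antagonists differed for it by a direct test of SN-011 against H151. C5ar1, the receptor for the complement fragment C5a, stood at 377.4 and 366.6 CPM with SN-011 and 512.2 and 488.7 CPM with H151, -0.428 ± 0.061 on the log2 scale (SE; edgeR adjusted p = 0.0134, lower in 2 of 2 libraries). Trex1-KO lay between them at 441.7 and 454.1 CPM, and WT at 324.3 and 359.5 CPM. The call was lost without either SN-011 library, and the part of any difference in batch between the compounds was not tested.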

How the results depend on the processing

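Precision was limited by 2 libraries a group and by low counts, 20 to 180 a library for Fpr2 and 29 to 106 for Fpr1. For the 7 receptors and the named list genes, 464 values kept their direction and side of the threshold under alternatives that kept all libraries, 8 gained and 12 lost a call, and 2 reversed, both near 0 and under total-count scaling (Cxcr4, SN-011 against Trex1-KO, 0.005; Fpr1, H151 against WT, -0.007). When 1 library was left out, 420 kept both, 5 gained and 50 lost a call and 13 reversed. The cause of these changes was not tested, beyond the fewer samples that leaving out a library leaves and the more genes that a lower filter tests.

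Counts of calls moved by over 1.5 times as follows. Over all genes, H151 against Trex1-KO gave 325 calls and 525 with a filter at 1 count, SN-011 against Trex1-KO 340 and 679 with that filter, and SN-011 against H151 23, against 38 with DESeq2, 84 with the exact test and 266 with that filter. Among the 7 receptors, H151 against Trex1-KO gave 2 calls, and 4 with the exact test or the filter at 1 count, a count that includes Fpr2, for which this contrast is no independent test. Ligand calls with H151 were 2, but 1 with total counts, 0 with DESeq2 and 4 with the filter at 1 count; with SN-011 they were 1, but 0 with DESeq2, 4 with the exact test, 5 with the filter and 4 in a fit of only the 2 groups. Calls of other receptors were 1 with H151 and 0 in the fit of 2 groups, and 1 with SN-011 but 0 with total counts and 2 with the filter. Signalling calls were 0 with H151 and 1 with the filter at 1 count, and 1 with SN-011 and 0 with total counts. Scaling by total counts moved the share of higher calls from 56.6% to 37.2% (Trex1-KO against WT), 57.4% to 41.7% (H151 against WT) and 52.6% to 40.3% (SN-011 against WT).

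The replicate numbers pair nothing that the labels state, and the deviations of same-numbered libraries correlated at -0.03 to 0.24. With the replicate block, SN-011 against H151 had 44 calls over all genes, the ligands had 3 calls with SN-011, the signalling genes 8 for Trex1-KO against WT (5 without it) and 1 with H151.

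Leaving out 1 library gave these ranges of calls over all genes: 1556 to 2651 for Trex1-KO against WT, 231 to 357 for H151 against Trex1-KO, 131 to 493 for SN-011 against Trex1-KO, 2 to 291 for SN-011 against H151, 971 to 1790 for H151 against WT and 909 to 1933 for SN-011 against WT. The 7 receptors, Fpr2 included, had 3 to 6 calls for Trex1-KO against WT (3 without WT replicate 2 or Trex1-KO replicate 1), 2 to 3 for H151 against Trex1-KO, 0 to 3 for SN-011 against Trex1-KO (0 without SN-011 replicate 1 and 1 without SN-011 replicate 2), 3 to 5 for H151 against WT (5 without WT replicate 2, Fpr2 lower) and 2 to 3 for SN-011 against WT. Other receptors had 5 to 8 calls for Trex1-KO against WT, 0 to 1 for H151, 0 to 2 for SN-011 and 0 to 1 for SN-011 against H151; ligands 7 to 9, 0 to 3 and 0 to 4 for the first 3 contrasts; signalling genes 4 to 8 for Trex1-KO against WT and 0 to 1 for SN-011. Among the contrasts for the 7 receptors, only H151 against WT shares no library with the contrast that chose Fpr2. Calls of Fpr2 in the other contrasts are a description. Log2 values that changed sign ran, for SN-011 against Trex1-KO, from -0.077 to 0.292 (Ccr1), -0.194 to 0.011 (Ccr2) and -0.091 to 0.05 (Cxcr4); for SN-011 against H151, from -0.248 to 0.022 (Cx3cr1) and -0.012 to 0.205 (Fpr1); for SN-011 against WT, from 0 to 0.325 (Cx3cr1), -0.045 to 0.195 (Cxcr4), -0.083 to 0.363 (Fpr1) and -1.878 to 0.471 (Fpr2); for H151 against WT, from -0.169 to 0.276 (Fpr1) and -1.184 to 1.166 (Fpr2); and for Trex1-KO against WT, from -0.025 to 0.214 (Cxcr4).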
